A study of Homo sapiens with 16 samples.

Results

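The genes MIR425 and MIR191 lie side by side in DALRD3 on chromosome 3, and their miRNAs were followed here through cells and extracellular vesicles (EVs) of a prostate cancer line, PC3, and a breast cancer line, MDA-MB-231. The rows hsa-miR-425-5p, hsa-miR-425-3p, hsa-miR-191-5p and the hairpin rows hsa-mir-425 and hsa-mir-191 were taken by name from the miRNA table, and hsa-miR-191-3p was added to complete both genes. This gave 6 of 915 entries. The cluster was chosen by the measured levels of these libraries, among them the presence of hsa-miR-425-5p in all EV libraries, so its abundance is given as a description and the tests below are no independent evidence.

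The 16 small RNA libraries fall into 8 groups of 2: for each line, EVs from conditioned media (CM) isolated with next-gen ATPS, with ultracentrifugation (UC) or with the exoRNeasy kit, and the EV donor cells. All cells were labelled wild type and untreated, and all were starved in serum-free medium before the CM was collected. Next-gen ATPS partitions vesicles between polyethylene glycol and dextran phases and then digests the dextran. RNA of next-gen ATPS EVs, UC EVs and cells was extracted with TRIzol and that of exoRNeasy EVs on the columns of the kit, so that isolation and extraction cannot be told apart. The labels write VC for UC, taken here as UC since the protocols name only this further method. Neither labels nor methods tell if both libraries of a group had cultures of their own, and the spread that enters the p-values may therefore be technical. The number of vesicles and the RNA per vesicle cannot be told apart either.

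A miRNA is cut from a hairpin of the primary transcript, and one or the other arm (5p or 3p) is loaded into an Argonaute protein, where bases 2 to 8 of the arm, the seed, pair with target mRNAs. miRNAs in introns are made from the transcript of their host gene. miR-191 and miR-425 are a textbook example of an intronic pair from 1 host and are known as abundant miRNAs of epithelial cancers, and their 5p arms are often used as references in qPCR of blood and of EVs.

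In GRCh38, MIR425 spans chr3:49020148-49020234 and MIR191 spans chr3:49020618-49020709, both on the minus strand and 383 bases apart. Both hairpins lie within DALRD3 (chr3:49015488-49022293, minus strand) and in an intron of 4 of its 15 GENCODE v44 transcripts, 3 of them coding, and overlap an exon of none. MIR191 also lies within NDUFAF3, which is annotated on the opposite strand. Of the 6 members 5 were matched by name to RefSeq (GRCh38.p14), all but hsa-miR-425-5p, whose sequence and seed are therefore not given. The 3 matched mature arms and the hsa-mir-191 hairpin are shown because the arms differ widely in reads, and the hsa-mir-425 hairpin is not shown. In the mature arms the capitals mark the seed, and in the hairpin they mark both arms.

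hsa-miR-425-3p: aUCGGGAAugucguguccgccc

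hsa-miR-191-5p: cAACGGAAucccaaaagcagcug

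hsa-miR-191-3p: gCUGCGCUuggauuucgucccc

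hsa-mir-191 hairpin: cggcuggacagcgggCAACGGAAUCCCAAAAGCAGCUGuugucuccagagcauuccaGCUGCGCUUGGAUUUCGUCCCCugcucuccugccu

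Each of these 3 seeds was found in 0 other names among the 2370 mature names of the RefSeq table, so that no other miRNA of that table shares a seed with them.

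Values are deposited as TPM, which here means reads of an entry per 1000000 miRNA reads of its library, without a length term. Libraries held 153 to 97408 miRNA reads, so that 1 read was worth 10.27 to 6536 TPM. The shallowest was MDA-MB-231 cells replicate 2 with 153 reads and 36 entries above 0, and the next had 1982 reads. Counting intervals and limits below cover counting error only, since the reads carry no molecular identifiers. The line labels were not tested by markers: of 7 epithelial miRNAs 3 were analysed, and their summed level was 0 to 399 TPM in PC3 EVs, 113 to 174 TPM in PC3 cells, 0 to 74.8 TPM in MDA-MB-231 EVs and 0 to 135 TPM in MDA-MB-231 cells, each at most 11 reads. The 3 analysed were all of the miR-200 family, and their few reads do not test the label of both lines as epithelial. Of 6 blood cell miRNAs, which serum can bring, only hsa-miR-486-5p was analysed, at most 12 reads a library.

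The 5p arm of miR-425 held nearly all reads of the cluster. Of the reads of the 6 entries, hsa-miR-425-5p held 13093 (96.6%), hsa-miR-191-5p 391 (2.89%), hsa-miR-425-3p 47, hsa-mir-425 11, hsa-mir-191 9 and hsa-miR-191-3p 1. Reads of hsa-miR-425-5p were present in 16 of 16 libraries, those of hsa-miR-191-5p in 12, hsa-miR-425-3p in 9, hsa-mir-425 in 7, hsa-mir-191 in 6 and hsa-miR-191-3p in 1. hsa-miR-425-5p ranked between 4 and 11 among all entries of a library. The filter of at least 1 TPM in at least 2 libraries was passed by 5 of the 6 members and by 566 of 915 entries, and hsa-miR-191-3p, with 1 read in PC3 cells replicate 1, was not tested.

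In PC3, hsa-miR-425-5p was measured at 13726 and 16479 TPM in next-gen ATPS EVs, 23063 and 24871 TPM in UC EVs, 48387 and 42664 TPM in exoRNeasy EVs, and 62460.1 and 69450.1 TPM in cells. The 4 groups did not overlap, with next-gen ATPS EVs lowest and cells highest. The share of all entries that separate EVs from cells in this way was not counted. In MDA-MB-231 the values were 12719.7 and 12976 TPM in next-gen ATPS EVs, 19409.6 and 18222 TPM in UC EVs, 51167 and 65086 TPM in exoRNeasy EVs, and 34979 and 26144 TPM in cells. Here too the groups did not overlap and next-gen ATPS EVs were lowest, but exoRNeasy EVs stood above the cells. The share of all entries whose groups separate in this way was not counted in this line either. The value of MDA-MB-231 cells replicate 2 rests on 4 of 153 reads, with a 95% Wilson interval of 10213 to 65287 TPM.

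**Figure D1:**
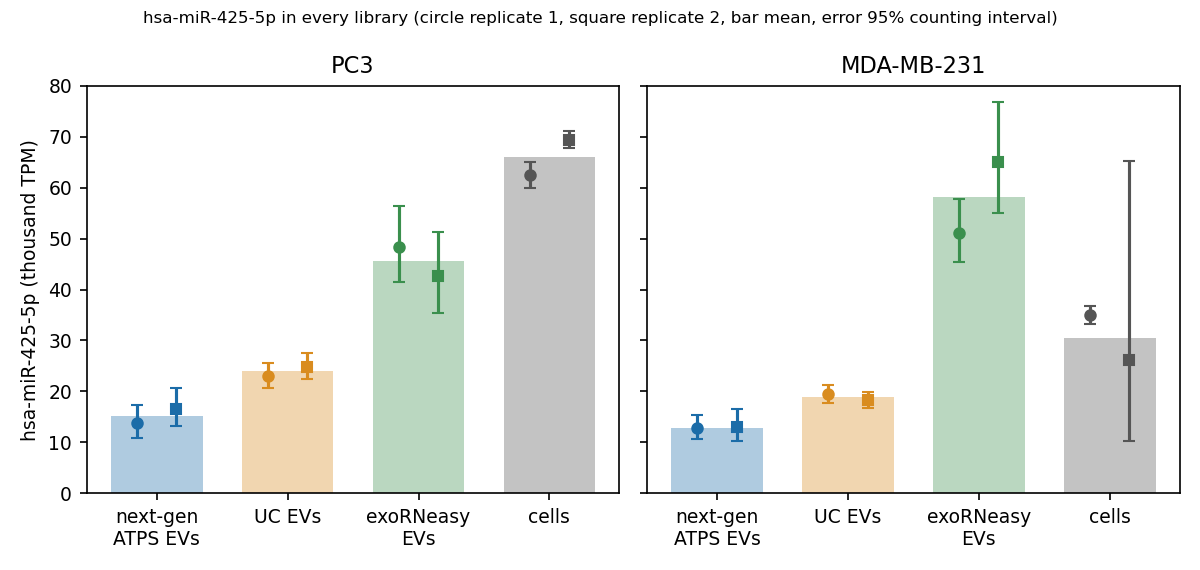
hsa-miR-425-5p in units of 1000 TPM (y axis) by material (x axis) in PC3 (left panel) and MDA-MB-231 (right panel), with 1 point per library, the mean as a bar and 95% Wilson counting intervals. Next-gen ATPS EVs lie lowest in both lines (12719.7 to 16479 TPM) and PC3 cells highest (62460.1 and 69450.1 TPM), and the interval of MDA-MB-231 cells replicate 2 spans 10213 to 65287 TPM.

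Ordered by mean, the 8 groups ran from MDA-MB-231 next-gen ATPS EVs (12848 ± 181 TPM, SD, n = 2) through PC3 next-gen ATPS EVs (15102 ± 1947), MDA-MB-231 UC EVs (18816 ± 840), PC3 UC EVs (23967 ± 1278), MDA-MB-231 cells (30561 ± 6247), PC3 exoRNeasy EVs (45525 ± 4047) and MDA-MB-231 exoRNeasy EVs (58126 ± 9842) to PC3 cells (65955 ± 4943). The highest mean was 5.13 times the lowest. Of the 7 pairs of neighbours in this order, only MDA-MB-231 exoRNeasy EVs and PC3 cells had libraries that overlapped. How many other entries separate as many neighbours was not counted. The counting intervals of neighbouring groups overlapped in 7 of 7 pairs. Each group interval runs from the lowest to the highest limit of both libraries, so that its overlap does not test a separation. In MDA-MB-231 and PC3 UC EVs the intervals of both replicates 2 did not overlap (16686 to 19896 and 22460 to 27533 TPM). Those of both replicates 1 did (17763 to 21205 and 20752 to 25625 TPM).

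The test of levels was limma on log2(TPM + 1) over all 566 entries, with Benjamini-Hochberg adjusted p-values and a threshold of 0.05. On this scale entries without reads in some libraries can show larger fold changes than their reads give. Values are shares of a library, and the median of all entries moved as well: EVs against cells had a median log2 fold change of -1.61 in PC3 and 0.88 in MDA-MB-231. The scaling moved these medians, which were 0.05 and -0.21 after quantile normalization, so both are given beside the members. The medians also cover entries with 0 reads, and depth differed between groups. Entries above 0 numbered 363 and 508 in PC3 cells, 154 to 282 in PC3 EV libraries and 36 in MDA-MB-231 cells replicate 2. The part of depth in the medians was not tested.

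In PC3, hsa-miR-425-5p was lower in EVs than in cells. The log2 fold change of EVs against PC3 cells was -1.38 ± 0.28 (SE, limma adjusted p = 0.00509), and 8.83% of entries were called in that comparison (50 of 566; 46 entries or 8.13% were lower). All 6 PC3 EV libraries lay below both PC3 cell libraries, a pattern whose share over all entries was not counted. By method, the log2 fold change against PC3 cells was -2.13 ± 0.34 in next-gen ATPS EVs (limma adjusted p = 0.00188, 5.83% of entries called), -1.46 ± 0.34 in UC EVs (adjusted p = 0.022, 5.3% called) and -0.54 ± 0.34 in exoRNeasy EVs (adjusted p = 0.393, 6.54% called). The median log2 fold change over all entries was -1.61 in PC3 EVs against cells. hsa-miR-425-5p stood 0.24 above that median, but 0.90 below the median after quantile normalization. Its place against the median thus turned with the scaling and is given as a description only. Leaving out 1 library can leave an arm of 1, which limma then assumes to vary like the other groups. The call for PC3 EVs rested on both cell libraries, with adjusted p-values of 0.258 without PC3 cells replicate 1 and 0.259 without replicate 2. So did those of next-gen ATPS EVs (adjusted p = 0.0735 and 0.0931) and UC EVs (adjusted p = 0.382 and 0.445), and that of UC EVs was also lost without PC3 UC replicate 1 (adjusted p = 0.0535). The call for PC3 EVs was also lost with no filter on low values (adjusted p = 0.528) and with quantile normalization (adjusted p = 0.337).

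The rest of PC3 EV and cell libraries is dominated by other species, whose share moved with these groups. hsa-miR-182-5p, which is made with miR-96 and miR-183 from 1 transcript, averaged 555831 TPM in next-gen ATPS EVs, 484494 TPM in UC EVs and 505163 TPM in exoRNeasy EVs of PC3, against 97104 TPM in PC3 cells. hsa-mir-1291 averaged 18538, 24809 and 28235 TPM in these EVs, against 286411 TPM in PC3 cells. The part of these species in the level of hsa-miR-425-5p was not tested.

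In MDA-MB-231, EVs as a whole did not pass the threshold against cells (log2 fold change -0.33 ± 0.28, SE, limma adjusted p = 0.662; 3.89% of entries called). The methods stood on both sides of the cells. The log2 fold change against MDA-MB-231 cells was -1.24 ± 0.34 in next-gen ATPS EVs (adjusted p = 0.111, 1.59% called), -0.69 ± 0.34 in UC EVs (adjusted p = 0.488, 1.24% called) and 0.93 ± 0.34 in exoRNeasy EVs (adjusted p = 0.172, 4.77% called). Without the shallow MDA-MB-231 cells replicate 2 the cells were 1 library, whose spread limma took from the other groups, and the values were -1.45 (limma adjusted p = 0.00184), -0.90 (adjusted p = 0.0206) and 0.72 (adjusted p = 0.0272). Without MDA-MB-231 cells replicate 1 they were -1.02, -0.48 and 1.14, which rest on the 4 reads of the shallow library and are given with no test.

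The difference between the lines in this change of EVs against cells was -1.05 ± 0.39 (SE, log2 scale, PC3 minus MDA-MB-231) and did not pass the threshold (limma adjusted p = 0.290; 0.177% of entries called, 1 of 566). Without the shallow MDA-MB-231 cells replicate 2 it was -0.84 (adjusted p = 0.0608), again with 1 cell library in that line. By method the difference between lines was -0.90 ± 0.48 for next-gen ATPS EVs (adjusted p = 0.516, 0.353% of entries called), -0.77 ± 0.48 for UC EVs (adjusted p = 0.560, 0.177% called) and -1.47 ± 0.48 for exoRNeasy EVs (adjusted p = 0.202, 0.177% called). In cells, hsa-miR-425-5p was 1.12 ± 0.34 higher on the log2 scale in PC3 than in MDA-MB-231, which did not pass in the fit of all 16 libraries (limma adjusted p = 0.0988; 4.24% of entries called), nor in 7 of 16 fits without 1 library, among them those without PC3 cells replicate 1 (1.20, adjusted p = 0.693) or replicate 2 (1.05, adjusted p = 0.656). It passed in the other 9, among them that without MDA-MB-231 cells replicate 2 (0.91, adjusted p = 0.0148). In EVs the difference between PC3 and MDA-MB-231 was 0.08 ± 0.20 (adjusted p = 0.904, 95% interval -0.34 to 0.50; 7.24% of entries called).

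**Figure D2:**
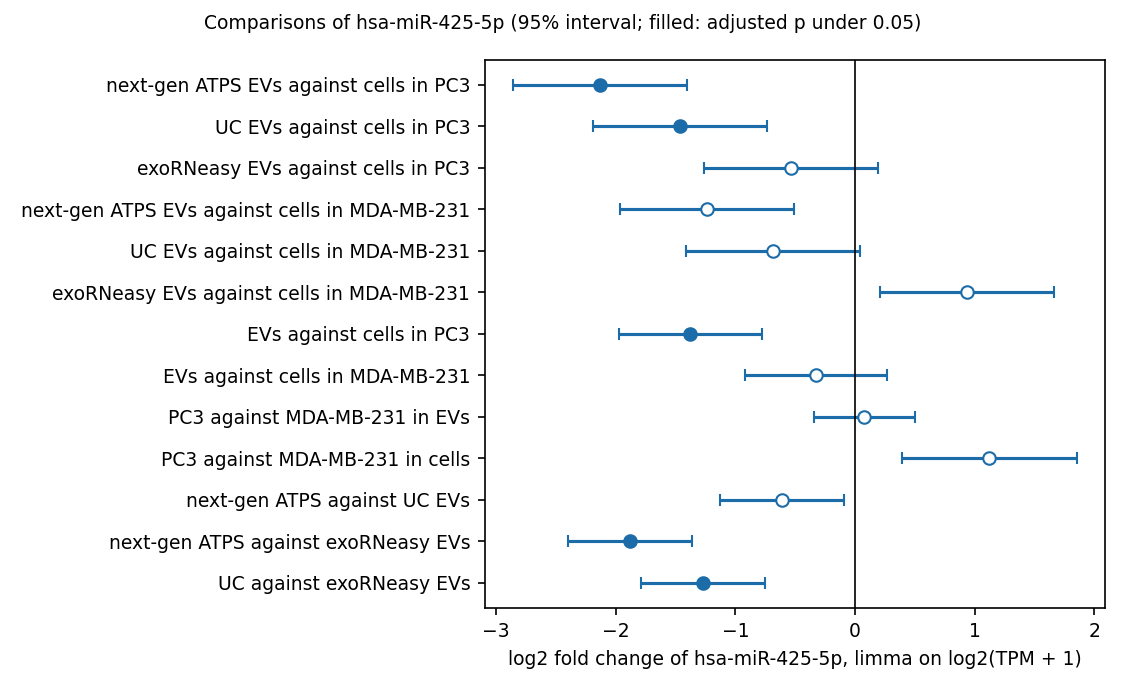
Log2 fold change of hsa-miR-425-5p (x axis, limma on log2(TPM + 1)) in 13 comparisons (rows), with 95% intervals and filled points where the adjusted p was under 0.05. The filled points are PC3 next-gen ATPS, PC3 UC and all PC3 EVs against cells (-2.13, -1.46 and -1.38), next-gen ATPS against exoRNeasy EVs (-1.88) and UC against exoRNeasy EVs (-1.27).

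Isolation methods differed in the level of hsa-miR-425-5p. Next-gen ATPS EVs held 0.332 times the mean of exoRNeasy EVs in PC3 and 0.221 times in MDA-MB-231, a log2 fold change of -1.88 ± 0.24 over both lines (SE, limma adjusted p = 0.00111), the smallest p among 566 entries, of which 2.83% were called. By the size of its change hsa-miR-425-5p ranked only 258 among the 566. UC EVs held 0.526 times the mean of exoRNeasy EVs in PC3 and 0.324 times in MDA-MB-231 (log2 fold change -1.27 ± 0.24, adjusted p = 0.0137; 7.77% of entries called). Next-gen ATPS EVs held 0.630 times the mean of UC EVs in PC3 and 0.683 times in MDA-MB-231, which did not pass (log2 fold change -0.61 ± 0.24, adjusted p = 0.408). In that last comparison limma called 0% of entries, with 50 entries at an unadjusted p under 0.05, while edgeR called 2 and DESeq2 called 20. hsa-miR-425-5p was among those of DESeq2 (-1.64, adjusted p = 0.023) but not those of edgeR (-1.06, adjusted p = 0.730).

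The order of exoRNeasy above UC above next-gen ATPS, with no overlap in either line, was held by 1 of 566 entries (0.177%), hsa-miR-425-5p, and by 1 of the 9 entries with at least 10 reads in each of the 15 deeper libraries (11.1%). Of the 566 entries, 4.42% held exoRNeasy above UC in both lines and 2.65% held UC above next-gen ATPS in both. Most of the 566 entries have too few reads to hold such an order. The difference of next-gen ATPS against exoRNeasy EVs passed in 16 of 16 fits without 1 library (adjusted p up to 0.0122), but not with no filter on low values (adjusted p = 0.72), nor with edgeR (-1.45, adjusted p = 0.264) or DESeq2 (-1.20, adjusted p = 0.167) on the recovered reads. That of UC against exoRNeasy EVs was lost in 4 fits without 1 library (without either PC3 cell library or either MDA-MB-231 exoRNeasy library, adjusted p up to 0.0882), with no filter (adjusted p = 0.492), with quantile normalization (adjusted p = 0.108) and with edgeR (-0.39, adjusted p = 1.00), and changed sign with DESeq2 (0.44, adjusted p = 0.554).

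The reads that share the denominator also differ between groups. Entries with mature names took 79.0% ± 1.85 (SD, n = 2) of reads in PC3 next-gen ATPS EVs, 71.4% ± 1.03 in PC3 UC EVs, 80.8% ± 1.03 in PC3 exoRNeasy EVs and 54.7% ± 0.585 in PC3 cells. In MDA-MB-231 they took 40.0% ± 5.33 in EVs of next-gen ATPS, 44.6% ± 0.0118 in UC EVs, 57.5% ± 4.25 in exoRNeasy EVs and 70.9% ± 5.01 in cells. Hairpin-named and other entries therefore take the larger part of MDA-MB-231 next-gen ATPS and UC libraries, but not of the others.

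Per 1000000 reads of mature names, hsa-miR-425-5p was 19162 ± 2915 in EVs of next-gen ATPS, 33537 ± 1305 in UC EVs, 56293 ± 4289 in exoRNeasy EVs and 120505 ± 7745 in cells of PC3 (SD, n = 2). In MDA-MB-231 it was 32391 ± 3861, 42213 ± 1895 and 100752 ± 9669.9 in these EVs, and 42924 ± 5783 in cells. On this scale the order of methods was kept, and next-gen ATPS against exoRNeasy EVs (-1.60, limma adjusted p = 0.00018) and UC against exoRNeasy EVs (-0.999, adjusted p = 0.00285) passed. The lines differed more: the difference between lines in the change of EVs against cells was -2.14 (adjusted p = 0.00123), and PC3 EVs stood below MDA-MB-231 EVs (-0.64, adjusted p = 0.00543), the opposite sign to the TPM scale. exoRNeasy EVs against MDA-MB-231 cells also passed on this scale (1.23, adjusted p = 0.00559).

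**Figure D3:**
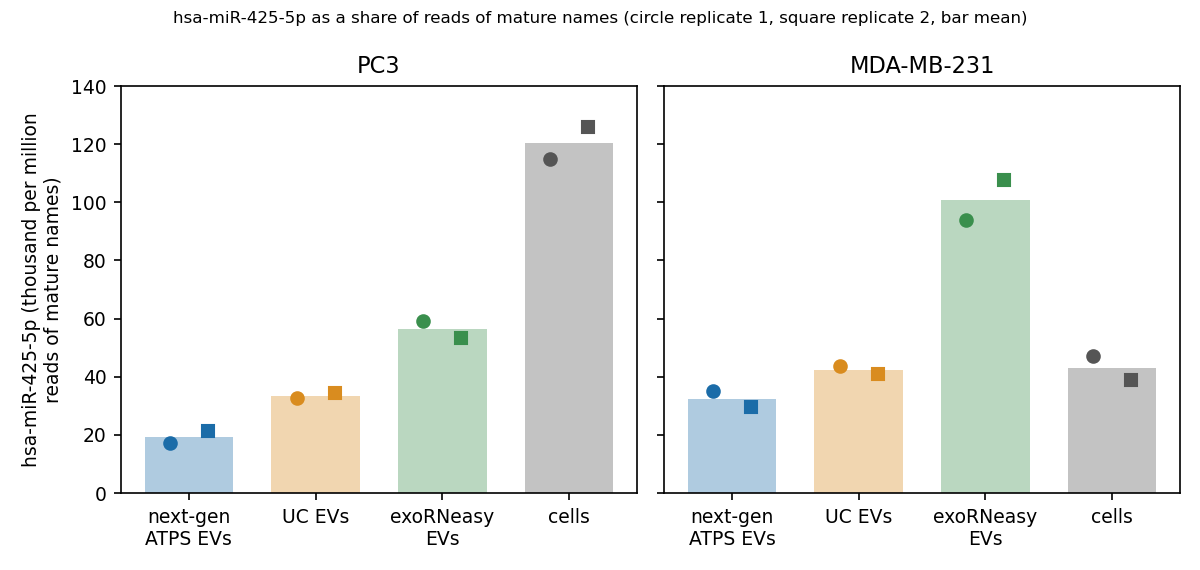
hsa-miR-425-5p in units of 1000 reads per 1000000 reads of mature names (y axis) by material (x axis) in PC3 (left panel) and MDA-MB-231 (right panel), with 1 point per library and the mean as a bar. PC3 next-gen ATPS EVs stand lowest (mean 19162), and PC3 cells (120505) and MDA-MB-231 exoRNeasy EVs (100752) highest.

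The 5p arm of miR-191, from the neighbouring hairpin, was far less abundant. In PC3, hsa-miR-191-5p had 0 and 1 reads in next-gen ATPS EVs, 10 and 6 in UC EVs (684 and 413 TPM), 3 and 0 in exoRNeasy EVs, and 61 and 190 in cells (1772 and 1951 TPM). Both PC3 cell libraries stood above each PC3 EV library, again with no count of this pattern over all entries. In MDA-MB-231 it had 6 and 3 reads in next-gen ATPS EVs (694 and 618 TPM), 13 and 19 in UC EVs (526 and 711 TPM), 1 and 0 in exoRNeasy EVs, and 78 and 0 in cells, where the 78 reads of replicate 1 made 1758 TPM and the 153 reads of replicate 2 allow up to 19608 TPM. The level in MDA-MB-231 cells thus rests on 1 library.

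**Figure D4:**
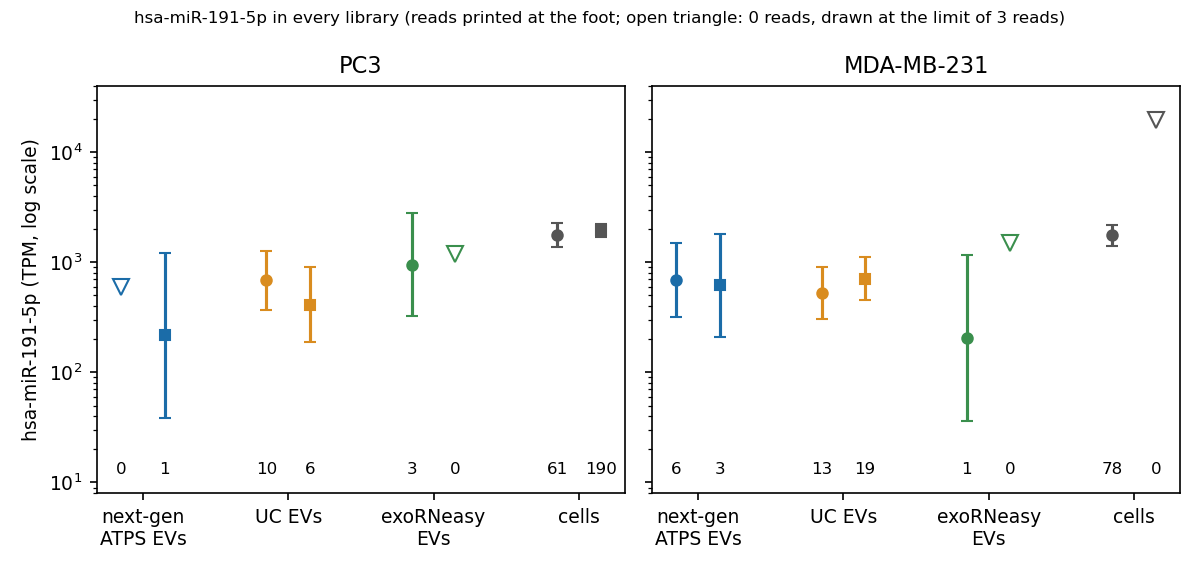
hsa-miR-191-5p in TPM on a log scale (y axis) by material (x axis) in PC3 (left panel) and MDA-MB-231 (right panel), with 95% Wilson intervals and the reads of each library at the foot. Libraries with 0 reads are open triangles at the limit of 3 reads, and the 3 cell libraries with reads lie at 1758 to 1951 TPM.

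Pooled over the libraries of a group, hsa-miR-191-5p held 20 of 44436 reads in PC3 EVs, against 251 of 131830 in PC3 cells. This is 0.236 times the level of the cells (95% exact counting interval 0.142 to 0.373). In MDA-MB-231 EVs it held 42 of 71827 reads, against 78 of 44523 in cells, a ratio of 0.334 (0.224 to 0.492). limma on log2(TPM + 1), in which a library with 0 reads weighs heavily, called hsa-miR-191-5p in 0 of 17 comparisons (0 at an unadjusted p under 0.05), with a log2 fold change of -4.90 ± 3.23 for PC3 EVs against cells (SE, adjusted p = 0.438). For MDA-MB-231 EVs against cells limma gave 2.10 ± 3.23 (adjusted p = 0.814), the opposite sign to the pooled ratio, and -3.29 without the shallow cell library, which had 0 reads. edgeR's quasi-likelihood test on the recovered reads called 3 of 17, among them PC3 EVs against cells (log2 fold change -3.25, adjusted p = 4.06e-05, 13.3% of entries called), and DESeq2 called 4 of 17, among them the same comparison (-4.18, adjusted p = 0.000324, 11.7% called). For MDA-MB-231 EVs against cells neither tool called it. Next-gen ATPS, UC and exoRNeasy EVs of both lines pooled held 432 TPM (10 reads), 596 TPM (48 reads) and 319 TPM (4 reads). Their exact intervals were 207 to 795, 439 to 790 and 86.9 to 817 TPM, and the overlap of these does not test a difference. The order differed by line. In PC3 these methods held 104 TPM (1 read), 549 TPM (16 reads) and 529 TPM (3 reads). In MDA-MB-231 they held 667 TPM (9 reads), 622 TPM (32 reads) and 146 TPM (1 read). limma, edgeR and DESeq2 called no difference of hsa-miR-191-5p between methods over both lines.

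The ratio of both 5p arms within a library does not depend on the other entries. PC3 next-gen ATPS EVs held at least 23 and 76 reads of hsa-miR-425-5p per read of hsa-miR-191-5p, PC3 UC EVs 33.7 and 60.2, PC3 exoRNeasy EVs 51 and at least 35.7, and PC3 cells 35.2 and 35.6, where "at least" sets 0 reads of hsa-miR-191-5p at 3. MDA-MB-231 next-gen ATPS EVs held 18.3 and 21, UC EVs 36.9 and 25.6, exoRNeasy EVs 250 and at least 43, and cells replicate 1 held 19.9. The values of EVs and cells overlap in both lines. With 0.5 read added to each side, the mean log2 ratio was 5.86 in EVs and 4.44 in cells (difference 1.42, two-sided exact permutation test within lines, p = 0.0523, adjusted p = 0.401 over 10 tests). The cell mean includes MDA-MB-231 cells replicate 2 at 3.17, and the added 0.5 read also sets the ratio of EV libraries with 0 reads. Pooled, EVs held 2622 reads of hsa-miR-425-5p and 62 of hsa-miR-191-5p, and cells 10471 and 329. The mean log2 ratio was 5.89 in PC3 and 5.12 in MDA-MB-231 (difference 0.77, exact permutation p = 0.153, adjusted p = 0.401). Between methods the smallest p the design allows is 0.0556, and the differences were 0.11 for next-gen ATPS against UC (exact p = 0.889), -1.89 for next-gen ATPS against exoRNeasy (exact p = 0.167) and -2.00 for UC against exoRNeasy EVs (exact p = 0.111), with adjusted p-values of 0.889, 0.401 and 0.401. None of these passed.

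**Figure D5:**
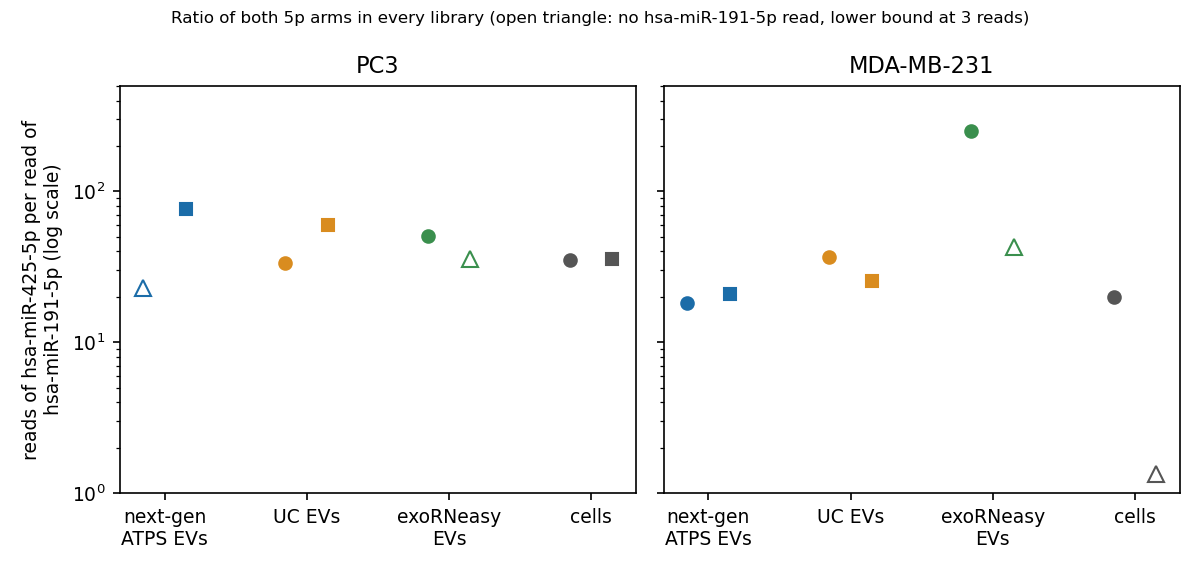
Reads of hsa-miR-425-5p per read of hsa-miR-191-5p on a log scale (y axis) by material (x axis) in PC3 (left panel) and MDA-MB-231 (right panel), with 1 point per library and open triangles for lower bounds where hsa-miR-191-5p had 0 reads. PC3 cells lie at 35.2 and 35.6, and the value of 250 in an MDA-MB-231 exoRNeasy library rests on 1 read of hsa-miR-191-5p.

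The 3p arm of miR-425 had reads in 9 libraries and at most 16 in any. Of the reads of both arms, the 5p arm took 97.3% in next-gen ATPS EVs (145 and 4 reads of 5p and 3p), 99.4% in UC EVs (698 and 4), 100% in exoRNeasy EVs (260 and 0) and 99.8% in cells (8915 and 17) of PC3. In MDA-MB-231 it took 99.4% (173 and 1), 98.4% (967 and 16) and 99.7% (379 and 1) in these EVs and 99.7% (1556 and 4) in cells. The lowest library was PC3 next-gen ATPS replicate 1 at 94.5% (95% Wilson interval 86.7% to 97.8%). The log2 ratio of 5p to 3p reads differed by -0.75 between EVs and cells (exact permutation p = 0.528) and by 1.27 between PC3 and MDA-MB-231 (exact permutation p = 0.241), with adjusted p-values of 0.660 and 0.401, and its 3 comparisons between methods had adjusted p-values of 0.401 to 0.679. limma called hsa-miR-425-3p in 0 of 17 comparisons, with 0 at an unadjusted p under 0.05, edgeR called 0 of 17, and DESeq2 called 0 of the 11 in which it gave an adjusted p.

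The hairpin row hsa-mir-425 held 11 reads in 7 libraries, at most 3 in any, and was called in 0 of 17 comparisons by limma (0 at an unadjusted p under 0.05) and by edgeR. The hairpin row hsa-mir-191 held 9 reads, and 7 of them were in exoRNeasy EVs. Next-gen ATPS EVs had 0 reads and UC EVs 1, in MDA-MB-231 replicate 2. It had 1 and 1 reads in PC3 exoRNeasy EVs (316 and 399 TPM) and 4 and 1 in MDA-MB-231 exoRNeasy EVs (819 and 504.5 TPM), and 1 read in PC3 cells replicate 1. All 4 exoRNeasy libraries thus held a read of hsa-mir-191, although they were among the shallowest. The share of all entries with such a pattern was not counted.

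Pooled over both lines, hsa-mir-191 held 0 of 23142 reads in next-gen ATPS EVs, against 7 of 12538 in exoRNeasy EVs (558 TPM, exact interval 224 to 1150 TPM). With next-gen ATPS EVs set at 3 reads over the group, exoRNeasy EVs were 4.31-fold higher. This value leaves out the counting error of the 7 exoRNeasy reads and is no lower bound. In PC3 alone exoRNeasy EVs held 2 of 5670 reads (353 TPM), and next-gen ATPS EVs 0 of 9639, with an upper exact limit of 383 TPM. Over both lines UC EVs held 1 of 80583 reads, which puts exoRNeasy EVs at 45.0 times UC EVs, with a counting interval of 5.78 to 2028. limma passed both (adjusted p = 0.0118 for next-gen ATPS and 0.0186 for UC against exoRNeasy EVs, 2.83% and 7.77% of entries called), and also passed exoRNeasy EVs against cells in MDA-MB-231 (adjusted p = 0.0238, 4.77% called), where the cells had 0 reads. edgeR kept the last of these (adjusted p = 0.0285) but not the others (adjusted p = 0.362 and 0.0552), and the limma call was also lost without PC3 next-gen ATPS replicate 1 for next-gen ATPS (adjusted p = 0.064). Without either PC3 cell library or either MDA-MB-231 exoRNeasy library, those for UC (adjusted p = 0.0607 to 0.0882) and for exoRNeasy EVs against MDA-MB-231 cells (adjusted p = 0.0532 to 0.111) were lost, as they were with no filter on low values (adjusted p = 0.0769 and 0.0704). DESeq2 gave hsa-mir-191 an adjusted p in only 4 comparisons, the differences between lines, and called 0 of them. The sources used here do not state how reads were divided between hairpin rows and rows of mature arms.

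The spread of hsa-miR-425-5p among libraries was low beside that of other well-read entries. Over the 15 libraries without MDA-MB-231 cells replicate 2, 9 entries had at least 10 reads in each, and the SD of log2(TPM + 1) was 0.90 for hsa-miR-425-5p, second lowest after hsa-miR-30d-5p at 0.71, beside a median of 1.39. The entries with the most similar pattern to hsa-miR-425-5p over these libraries were hsa-mir-1291 (Pearson r = 0.66), hsa-mir-222 (0.17) and hsa-miR-182-5p (0.08), among 8 others. For hsa-miR-191-5p they were hsa-mir-222 (0.53), hsa-miR-30d-5p (0.53) and hsa-miR-222-3p (0.49), among 9. Between hsa-miR-425-5p and hsa-miR-191-5p, which share a host transcript, r was -0.03 over the 15 libraries. These coefficients are descriptions over libraries that share a total, and 3 of the 15 libraries had 0 reads of hsa-miR-191-5p.

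Other miRNAs serve as a background for both roles of the cluster. Of 10 other miRNAs in use as qPCR references (10 tested), 0 rose and 1 fell in PC3 EVs against cells, where 8.83% of all entries were called. This was hsa-miR-103a-3p (log2 fold change -2.70 ± 0.54, SE, limma adjusted p = 0.00509), and the median of the 10 was -2.52 beside -1.61 over all 566 entries. In MDA-MB-231 EVs against cells, where 3.89% of all entries were called, 0 passed, with a median of 1.80 beside 0.88. The summed level of the 10 ran the other way, at 28037 TPM in MDA-MB-231 cells replicate 1 against 9082 to 18560 TPM in MDA-MB-231 EVs. In the shallow cells replicate 2 only 2 of 10 had reads (7 reads, 45752 TPM), so this median is no measure of their level. In next-gen ATPS and in UC against exoRNeasy EVs 1 of 10 rose, hsa-miR-25-3p (8.24 ± 1.95, adjusted p = 0.0398, and 8.12 ± 1.95, adjusted p = 0.0233), a direction opposite to hsa-miR-425-5p, where 2.83% and 7.77% of all entries were called. Fold changes of this size on the log2(TPM + 1) scale can be larger than the reads give, so only their direction is used here. The summed level of the 10 ran as that of hsa-miR-425-5p in PC3, with 5570 and 3903 TPM in next-gen ATPS EVs, 6365 and 7923 TPM in UC EVs and 13283 and 10766 TPM in exoRNeasy EVs. In MDA-MB-231 it was 10176 and 11329 TPM in next-gen ATPS EVs, 18560 and 14256 TPM in UC EVs and 12894 and 9082 TPM in exoRNeasy EVs, with overlap of next-gen ATPS and exoRNeasy EVs. In PC3 against MDA-MB-231 EVs 1 of 10 fell, again hsa-miR-103a-3p (-1.42 ± 0.38, adjusted p = 0.0422), beside 7.24% of all entries called.

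Of 18 other miRNAs in introns of coding genes, 17 were tested. This list shares members with the qPCR references, among them hsa-miR-103a-3p and hsa-miR-25-3p, so their calls count in both. In PC3 EVs against cells 0 rose and 2 fell, hsa-miR-103a-3p and hsa-miR-28-5p (-5.65 ± 1.51, limma adjusted p = 0.0329), beside 8.83% of all entries called. Their median was -2.60 beside -1.61 over all entries. In MDA-MB-231 EVs against cells 0 rose and 1 fell, hsa-miR-361-3p (-2.69 ± 0.68, adjusted p = 0.0475), beside 3.89% of all entries called. The median was -0.73 beside 0.88 over all entries. Only 5 of 17 had reads in the shallow MDA-MB-231 cells replicate 2 (11 reads), so this median is no measure of their level. hsa-miR-361-3p rose in next-gen ATPS EVs (3.05 ± 0.59, adjusted p = 0.0145) and in UC EVs (2.54 ± 0.59, adjusted p = 0.0207) against exoRNeasy EVs, as did hsa-miR-25-3p, so that 2 of 17 rose and 0 fell in each, beside 2.83% and 7.77% of all entries called. Their summed level was 51124 to 58514 TPM in next-gen ATPS and UC EVs of PC3, above the 17078 and 19139 TPM of PC3 exoRNeasy EVs, while hsa-miR-425-5p was highest in PC3 exoRNeasy EVs among PC3 EVs. In MDA-MB-231 the summed level was 23127 and 28218 TPM in next-gen ATPS EVs, 29600 and 29073 TPM in UC EVs and 21695 and 23209 TPM in exoRNeasy EVs, where next-gen ATPS and exoRNeasy EVs overlapped.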

How the data were processed

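Small RNA libraries of cells and CM EVs were prepared by the authors with the NEBNext Multiplex Small RNA kit. Per their methods, the authors applied a sliding window of 4 bases at Q20, retained lengths of 18 to 35 bases, and used STAR (hg38) and COMPSRA for alignment and annotation, with no versions stated in the sources used here. The deposited miRNA table is headed TPM, but its numbers are CPM over the miRNA reads of a library, since 100% were whole multiples of 1 read within 0.1 read. Reads were recovered from them. The test planned for TPM was kept.

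limma 3.58.1 (R 4.3.3, trend and robust) was fitted to log2(TPM + 1), with 1 mean for each of 8 groups and entries of at least 1 TPM in at least 2 libraries. The step was tested on simulated data. edgeR 4.0.16 and DESeq2 1.42.0 on recovered reads, a pseudocount of 10, no filter, quantile normalization, reads of mature names, a replicate block and leaving out each library were alternatives. The comparisons of single EV methods with cells were added after values were seen. Ratios of reads were compared with exact permutation tests (SciPy 1.17.1).

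Named entries were the members, list members past the threshold and the 3 entries most like each 5p arm. Members and lists were chosen with earlier results of these data known. The reads of replicates differed by more than read sampling in all 8 groups (chi-square p up to 0.0337), so no pair was taken as a repeat deposit of 1 library, which does not show that they are biological replicates. The circRNA and snoRNA tables were not used.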

Additional observations from a re-analysis of the deposited data

How the results depend on the processing

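Depth set the main limits: MDA-MB-231 cells replicate 2 had 153 reads, and hsa-miR-191-5p, hsa-miR-425-3p and the hairpin rows rest on few reads. Of 190 values under another setting, 133 kept their direction and side of the threshold, or for counts lay within 1.5 times; the cause of the changes was not tested. Counts of called entries were as follows. With no filter on low values 10 entries were called for EVs against cells in PC3, 6 in MDA-MB-231, 0 for the difference between lines, 0 for PC3 against MDA-MB-231 cells, 15 for PC3 against MDA-MB-231 EVs, 3 for next-gen ATPS against exoRNeasy and 1 for UC against exoRNeasy EVs. With quantile normalization 44 were called for MDA-MB-231 EVs against cells and 9 for the difference between lines. Scaled to mature reads these were 8 and 16, with 4 for next-gen ATPS against UC and 9 against exoRNeasy EVs. With a pseudocount of 10 they were 4 for the difference between lines and 1 for next-gen ATPS against UC EVs. edgeR called 39 for MDA-MB-231 EVs against cells, 37 for PC3 against MDA-MB-231 cells, and 2, 4 and 27 for next-gen ATPS against UC, next-gen ATPS against exoRNeasy and UC against exoRNeasy EVs, and DESeq2 called 20 and 8 for the first and second of these.

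For hsa-miR-425-5p (log2 fold change, adjusted p), no filter gave -1.38 (0.528) for PC3 EVs against cells, -2.13 (0.331) for next-gen ATPS and -1.46 (0.683) for UC EVs against PC3 cells, -1.88 (0.72) for next-gen ATPS and -1.27 (0.492) for UC against exoRNeasy EVs. Quantile normalization gave -0.85 (0.337) for PC3 EVs, -1.52 (0.113) for next-gen ATPS and -1.01 (0.406) for UC EVs against PC3 cells, -1.02 (0.108) for UC against exoRNeasy EVs, and 0.0353 (0.980) for MDA-MB-231 EVs against cells, the opposite sign. Scaled to mature reads the difference between lines was -2.14 (0.00123), and by method -2.26 (0.00488), -1.83 (0.00863) and -2.33 (0.00179) for next-gen ATPS, UC and exoRNeasy EVs. On that scale PC3 against MDA-MB-231 was 1.49 (0.000935) in cells and -0.64 (0.00543) in EVs, MDA-MB-231 EVs against cells 0.27 (0.522), again the opposite sign, and exoRNeasy EVs against cells -1.10 (0.00516) in PC3 and 1.23 (0.00559) in MDA-MB-231. A pseudocount of 10 gave -1.23 (0.0396) for next-gen ATPS EVs against MDA-MB-231 cells. edgeR gave -1.45 (0.264) for next-gen ATPS and -0.39 (1.00) for UC against exoRNeasy EVs, -1.71 (0.141) for UC EVs against PC3 cells and 0.0578 (1.00), the opposite sign, for UC EVs against MDA-MB-231 cells. DESeq2 gave -1.20 (0.167) and 0.44 (0.554) for the first and second of these, -1.64 (0.023) for next-gen ATPS against UC EVs, 2.14 (0.0394) for PC3 against MDA-MB-231 cells -2.84 (0.000581) for exoRNeasy EVs against PC3 cells and -0.45 (0.676), the opposite sign, for exoRNeasy EVs against MDA-MB-231 cells. For hsa-miR-191-5p in MDA-MB-231 EVs against cells edgeR gave -2.02 and DESeq2 -2.66, and values without 1 library ranged from -3.29 to 7.49. Over all comparisons, 67 of 1498 values of the 4 other tested members changed sign under an alternative, and 0 of these passed the threshold.

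With hairpin reads added, the log2 ratio of hsa-miR-425-5p to hsa-miR-191-5p reads was 0.96 higher in PC3 than in MDA-MB-231 (exact permutation p = 0.0386), and with 1 read added it was -0.24 for next-gen ATPS against UC EVs. Without PC3 next-gen ATPS replicate 1, PC3 UC replicate 1 or MDA-MB-231 UC replicate 2 the last was -0.25, -0.08 or -0.01. The ratio of 5p to 3p was 0.56 for EVs against cells without MDA-MB-231 cells replicate 1, and 0.0587 and 0.05 for next-gen ATPS against UC EVs without PC3 next-gen ATPS replicate 1 and without PC3 UC replicate 2.

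Without 1 library, called entries ranged from 6 to 81 and 8 to 72 for EVs against cells in PC3 and MDA-MB-231, 1 to 99 for the difference between lines, 3 to 93 and 20 to 89 for PC3 against MDA-MB-231 in cells and EVs, and 0 to 27, 2 to 39 and 1 to 81 for next-gen ATPS against UC, next-gen ATPS against exoRNeasy and UC against exoRNeasy EVs. In that order hsa-miR-425-5p ranged from -1.45 to -1.30, -0.54 to -0.12, -1.26 to -0.84, 0.91 to 1.33, 0.02 to 0.13, -0.68 to -0.54, -1.97 to -1.79 and -1.36 to -1.18. For next-gen ATPS, UC and exoRNeasy EVs against cells it ranged from -2.26 to -2.00, -1.54 to -1.38 and -0.63 to -0.44 in PC3, -1.45 to -1.02, -0.90 to -0.48 and 0.72 to 1.14 in MDA-MB-231, and -1.11 to -0.69, -0.98 to -0.56 and -1.68 to -1.26 for the difference between lines. For EVs against cells, PC3 against MDA-MB-231, and the 3 pairs of methods as above, the log2 ratio of hsa-miR-425-5p to hsa-miR-191-5p ranged from 1.13 to 1.70, 0.48 to 1.05, -0.25 to 0.48, -2.46 to -1.31 and -2.57 to -1.43, and that of 5p to 3p from -2.07 to 0.56, 0.61 to 1.93, -1.60 to 0.0587, -2.58 to -0.93 and -1.80 to -0.17.

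No label ties replicate numbers to a shared batch or day, and the correlation of deviations from group means ranged from -0.70 to 0.75 over 28 pairs of groups, 9 of them above 0.1. Among MDA-MB-231 EVs it was 0.75 for next-gen ATPS with UC, 0.53 for next-gen ATPS with exoRNeasy and 0.27 for UC with exoRNeasy, and with the cells 0.34, -0.01 and 0.51 for these 3 methods. With the replicate block, 13, 11 and 7 entries were called for MDA-MB-231 EVs against cells, PC3 against MDA-MB-231 cells and next-gen ATPS against exoRNeasy EVs, and hsa-miR-425-5p kept each of its calls.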
